A study of Rattus norvegicus with 20 samples.

Results

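A set of 10 genes of the BMP and activin pathway was followed in the insulin-producing line INS-1, derived from a rat insulinoma and used to model pancreatic beta cells. They are the secreted factors Bmp3 and Nog, the receptors Acvr1c, Bmpr1a and Bmpr2, the pseudoreceptor Bambi, the signalling proteins Smad9, Smad6 and Smad7, and the transcription factor Atoh8. Each was found by its symbol in the platform annotation on 1 probe set with no other symbol, so that all 10 were measured, out of 18166 genes in all. They were chosen because of how some of them had behaved across these same 4 groups, so the values of the 10 genes are a description, and the number of them past a threshold supports nothing about the pathway.

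The cells had been carried as 5 clones for 10 passages, plated, grown for about 48 h and then treated for 10 h. C4BP (C4b-binding protein, a plasma inhibitor of complement) was given at 0.6 uM and IAPP (islet amyloid polypeptide, the beta-cell hormone that forms amyloid) at 77 uM in monomeric form, or each at 300 ug/ml in the sample fields, and DMSO (1%) was the solvent of IAPP. The 20 Rat Gene 2.0 arrays form 4 groups of 5 by their titles, which read C4BP, C4BPD, IAPP and DMSO. The likely reading is C4BP together with IAPP for the title C4BP, C4BP without IAPP for C4BPD, IAPP alone for IAPP and solvent alone for DMSO, although no label writes out C4BP or C4BPD as a title. The separate treatment field gives the condition so read for 3 of the 20 arrays, so every group rests on the titles. Grouped by the treatment field instead, 0 of the 10 genes passed a threshold of an adjusted p under 0.05 over all genes in any comparison, and the differences of the 6 genes described as higher or lower with C4BP had the opposite sign in C4BPD vs DMSO and in C4BP vs IAPP. Wells of 1 title number may come from 1 clone, which the labels do not state, and p-values measure the spread between these samples.

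Bone morphogenetic proteins (BMPs) and activins are secreted dimers that bring together type I and type II receptor kinases. The type I receptor then phosphorylates a SMAD protein, which enters the nucleus with SMAD4. The BMP branch runs through SMAD1, SMAD5 and SMAD9, and the activin and TGF-beta branch through SMAD2 and SMAD3. Signalling switches on its own brakes, among them the inhibitory SMAD6 and SMAD7 and the pseudoreceptor BAMBI, and in many cell types the ID genes. In beta cells ACVR1C (ALK7) and BMPR1A have been linked to the control of insulin secretion.

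The array medians lay between 170.72 and 183.44 intensity units, and any pair of arrays correlated across probe sets at 0.985 to 0.996. All 8 measured beta-cell markers lay above the median of all probe sets (178.1), and their summed intensity ran from 38061 to 42047 in C4BP, 40925 to 45346 in C4BPD, 39006 to 41582 in IAPP and 41865 to 45303 in DMSO. Of 17 markers of fibroblasts, other endocrine, blood, endothelial, duct and acinar cells, 6 lay above it, with sums of 11947 to 12381 in C4BP, 12055 to 12328 in C4BPD, 11224 to 11736 in IAPP and 12073 to 12700 in DMSO. Most of that sum was Gcg, the glucagon gene, at 9160 to 10620 on every array. The part of these small differences in the results was not tested.

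The promoters of 4 members that were higher in both groups with C4BP are shown with 2 elements in capitals. One is GGCGCC, a GC-rich element that SMAD1 and SMAD5 bind, which reads the same on both strands. The other is CAGACA on either strand, an element of the SMAD3 and SMAD4 type. Atoh8, also higher in both, is not printed, and its promoter holds neither element. Each promoter runs from 250 bases before to 50 bases after the start of the gene, 5′ to 3′ on the gene's strand, from RefSeq on GRCr8. They are Smad7 (chr18:71263258-71263557, plus strand), Smad9 (chr2:141106418-141106717, plus strand), Bambi (chr17:58820954-58821253, minus strand) and Acvr1c (chr3:63301105-63301404, minus strand), with Nog (chr10:74627452-74627751, minus strand), which did not, for comparison.
Smad7: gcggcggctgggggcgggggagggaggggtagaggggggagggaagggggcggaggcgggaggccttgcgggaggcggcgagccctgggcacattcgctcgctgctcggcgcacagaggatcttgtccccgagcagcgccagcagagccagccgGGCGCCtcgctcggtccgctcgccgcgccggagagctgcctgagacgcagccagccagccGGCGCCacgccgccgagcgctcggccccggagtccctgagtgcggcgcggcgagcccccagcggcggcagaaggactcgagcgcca
Smad9: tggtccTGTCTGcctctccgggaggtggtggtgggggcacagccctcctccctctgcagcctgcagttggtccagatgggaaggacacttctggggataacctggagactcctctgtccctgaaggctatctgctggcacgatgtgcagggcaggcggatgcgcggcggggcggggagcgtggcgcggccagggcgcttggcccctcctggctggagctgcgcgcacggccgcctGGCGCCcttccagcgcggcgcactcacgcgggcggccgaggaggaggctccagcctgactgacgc
Bambi: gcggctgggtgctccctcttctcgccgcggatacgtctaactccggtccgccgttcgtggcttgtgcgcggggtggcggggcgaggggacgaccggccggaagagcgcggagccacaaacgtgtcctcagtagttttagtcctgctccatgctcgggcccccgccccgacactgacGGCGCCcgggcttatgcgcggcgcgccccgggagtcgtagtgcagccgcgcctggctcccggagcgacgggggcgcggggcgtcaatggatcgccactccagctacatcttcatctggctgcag
Acvr1c: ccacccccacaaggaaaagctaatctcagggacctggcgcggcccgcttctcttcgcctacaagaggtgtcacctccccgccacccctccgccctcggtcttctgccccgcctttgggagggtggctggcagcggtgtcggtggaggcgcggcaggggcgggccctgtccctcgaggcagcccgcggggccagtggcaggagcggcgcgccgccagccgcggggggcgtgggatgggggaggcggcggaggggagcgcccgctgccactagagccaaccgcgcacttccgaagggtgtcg
Nog: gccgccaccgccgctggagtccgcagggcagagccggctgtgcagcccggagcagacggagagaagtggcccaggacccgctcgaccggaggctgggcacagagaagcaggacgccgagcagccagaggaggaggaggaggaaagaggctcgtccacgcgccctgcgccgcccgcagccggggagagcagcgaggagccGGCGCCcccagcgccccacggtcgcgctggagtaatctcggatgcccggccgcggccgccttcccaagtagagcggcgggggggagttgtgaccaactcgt

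GGCGCC began 96 and 36 bases before the start of Smad7, 15 before Smad9, 74 before Bambi and 51 before Nog, and was not found in these windows of Acvr1c, Bmp3, Bmpr1a, Bmpr2 or Atoh8. It was thus present in 4 of the 9 members with a promoter sequence here, against 11.0% of all 33469 promoters of the same length. All 4 are GC-rich, at 77.7% G or C for Smad7, 71.0% for Smad9, 70.3% for Bambi and 73.0% for Nog, and among the 2769 promoters with at least 70% G or C, 47.1% held it. Of the 5 members at or above that share of G or C, Acvr1c (73.7%) included, 4 held it. CAGACA was found in Smad9 (244 bases before the start, on the other strand) and Bmp3 (42 after), against 21.1% of all promoters. Nog carried the element without a difference between groups, and Acvr1c differed without it.

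Bmp3, an atypical BMP that opposes bone-forming BMPs, was lower in both groups with C4BP than in their counterparts without it, and higher in both groups with IAPP. It read 1064.5, 929.7, 1058, 892 and 1027 in C4BPD wells (replicates 1 to 5), against 1541, 1255, 1205, 1270.3 and 1376 in DMSO wells. Every C4BPD array lay below every DMSO array, a difference of -0.42 on the log2 scale (95% interval -0.55 to -0.28). With IAPP present the values were 1548, 1379, 1449.5, 1368 and 1464 in C4BP wells, against 1916, 1853, 1837, 1683 and 1683.5 in IAPP wells, again without overlap (-0.32, interval -0.45 to -0.18). The opposite direction was seen between wells with and without IAPP. IAPP wells stood above DMSO wells by 0.44 (0.30 to 0.57), and C4BP wells above C4BPD wells by 0.54 (0.40 to 0.67), in each case with no overlap. C4BP and DMSO wells overlapped, at 1442 ± 73.1 and 1329 ± 133 (SD, n = 5 each), and the order of the groups from high to low was IAPP, C4BP, DMSO, C4BPD. In bulk RNA a lower level per cell and fewer cells that express a gene cannot be told apart.

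Nog encodes noggin, a secreted protein that binds BMPs and keeps them from their receptors. Its level was 184 ± 8.01 in C4BP, 182 ± 13.2 in C4BPD, 185 ± 9.31 in IAPP and 186 ± 5.87 in DMSO wells (SD, n = 5 each). The 4 ranges overlapped, and the intervals of the differences were -0.13 to 0.07 for C4BPD vs DMSO and -0.12 to 0.09 for C4BP vs IAPP. Nog lay close to the median of all probe sets, so little can be read from a small difference there.

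Acvr1c, the type I receptor ALK7 for activin B, nodal and related ligands, was the receptor that differed. It read 811, 1049, 962, 1005 and 1092 in C4BPD wells, against 547, 589, 641, 659 and 625 in DMSO wells. All 5 C4BPD arrays were above all 5 DMSO arrays, 1.6-fold on the ratio of geometric means (0.68 on the log2 scale, interval 0.52 to 0.84). In the presence of IAPP it read 761, 855, 827, 889.8 and 819 in C4BP wells, against 477, 532, 555, 521 and 604 in IAPP wells. The groups again did not overlap, and the difference was 0.63 (0.47 to 0.79), or 1.55-fold. IAPP wells were lower than DMSO wells by a smaller amount (-0.19, interval -0.34 to -0.03), with overlap, and C4BP wells lower than C4BPD wells (-0.24, interval -0.39 to -0.08), also with overlap. Neither of these passed the threshold of an adjusted p under 0.05 over all genes in the main fit. Both passed with the title number as a block in the model. The second also passed without C4BPD 1, without all arrays numbered 1, and with array weights.

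Bmpr1a (ALK3), a type I receptor of BMPs, did not pass in any comparison. It stood at 2113 ± 106 in C4BPD wells and 2062 ± 99.8 in DMSO wells, and at 2019 ± 123 in C4BP wells and 2014 ± 104 in IAPP wells (SD, n = 5 each). The ranges overlapped, and the intervals of the log2 differences were -0.07 to 0.14 for C4BPD vs DMSO and -0.10 to 0.11 for C4BP vs IAPP. What separated its arrays was the title number, which took 69.3% of the spread against 14.3% for the groups. The array numbered 1 was the highest in all 4 groups, at 2204 in C4BP, 2246 in C4BPD, 2132 in IAPP and 2162 in DMSO. Bmpr2, the type II receptor of BMPs, was dim on this array, at 62.8 to 75.7 on all 20 arrays against a median of 178.1 over all probe sets. It was not shown to be above background, and its overlapping group means (66.4 ± 2.64 in C4BPD, 69.4 ± 4.96 in DMSO, 68.7 ± 4.25 in C4BP, 68.6 ± 3.54 in IAPP) say little about the gene.

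Bambi resembles a type I receptor but lacks the kinase domain, and so blocks receptor complexes. It read 675, 756, 757, 758 and 798 in C4BPD wells, against 458, 478, 509, 492 and 502 in DMSO wells, with every C4BPD array higher (0.62 on the log2 scale, interval 0.52 to 0.71). With IAPP it read 581, 632, 631, 618 and 611 in C4BP wells, against 483, 456, 493, 463 and 520.0 in IAPP wells. This difference was 0.35 (0.25 to 0.45), with no overlap. C4BP wells were lower than C4BPD wells (-0.28, interval -0.38 to -0.18), again with no overlap, while IAPP and DMSO wells overlapped at 483 ± 25.4 and 488 ± 20.3. The order was thus C4BPD, then C4BP, then DMSO and IAPP, which did not differ beyond their spread.

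**Figure D1:**
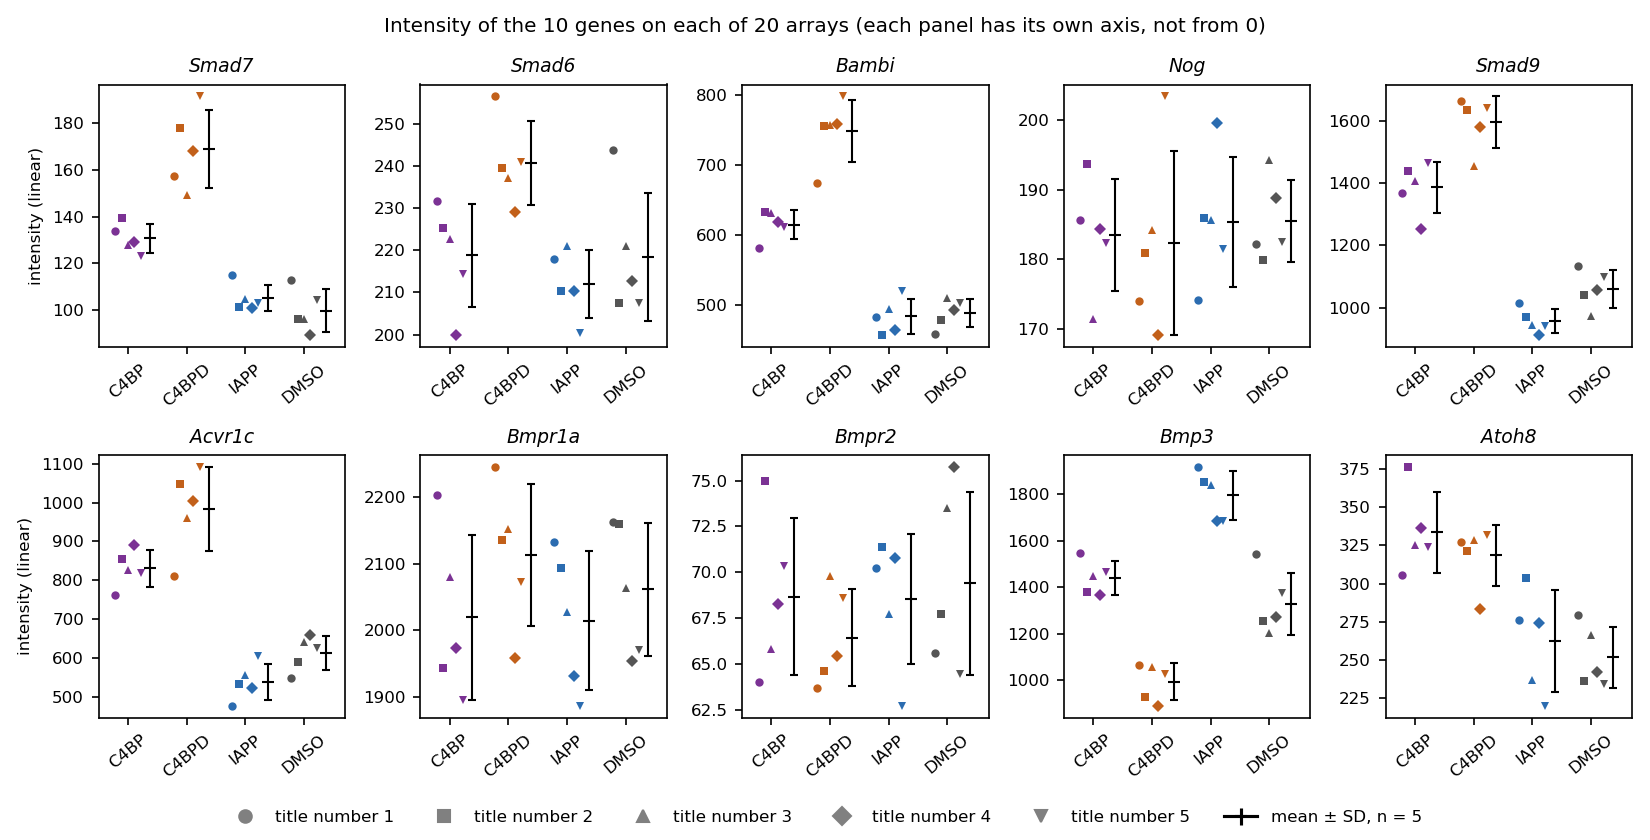
Intensity (linear scale, vertical axis, a separate range for each gene) on each of the 20 arrays, by title group, with the title number as marker shape and the mean ± SD of 5 arrays as a bar. Acvr1c, Bambi, Smad9 and Smad7 lie higher in both groups with C4BP than in IAPP and DMSO, Bmp3 is highest in IAPP and lowest in C4BPD, and Nog, Bmpr1a and Bmpr2 overlap across groups.

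Smad9 (SMAD8) is a receptor-activated SMAD of the BMP branch. It read 1664, 1634, 1456, 1582 and 1641 in C4BPD wells, against 1133, 1041, 972, 1055 and 1098 in DMSO wells. All C4BPD arrays were higher, by 0.59 on the log2 scale (0.48 to 0.70), or 1.5-fold. With IAPP it read 1367, 1439, 1407, 1253 and 1466 in C4BP wells, against 1016, 971, 945, 912 and 941 in IAPP wells, a difference of 0.53 (0.43 to 0.64) with no overlap. C4BP wells lay below C4BPD wells (-0.20, interval -0.31 to -0.10), with overlapping ranges. That call was lost without C4BPD 1, 2, 4 or 5 or without C4BP 1 or 4, at an adjusted p up to 0.104 (limma), and also with the compared groups alone, median centring, quantile normalization or all probe sets. IAPP and DMSO wells overlapped at 957 ± 39.3 and 1060 ± 61 (-0.15, interval -0.25 to -0.04). This difference did not pass in the main fit, but did with the title number as a block.

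Smad7 is the inhibitory SMAD that acts on both branches. Its 4 group means all lay under the median of all probe sets, so it was not shown to be above background, and its differences are those of the intensities as read. It read 157.5, 178, 149, 168 and 192 in C4BPD wells, against 113, 96.0, 96.0, 89.1 and 104 in DMSO wells. The groups did not overlap, at 0.76 on the log2 scale (0.62 to 0.90). With IAPP it read 134, 139, 128, 129 and 123 in C4BP wells, against 114.7, 101.4, 104.7, 100.8 and 103.1 in IAPP wells, a smaller difference of 0.32 (0.18 to 0.46) that also left no overlap. C4BP wells stood below C4BPD wells (-0.37, interval -0.51 to -0.23), with no overlap, a call that was lost without the arrays numbered 5. The call in C4BP vs IAPP was lost without C4BP 1, 2, 3 or 4 or without IAPP 2, 3, 4 or 5, at an adjusted p up to 0.0885 (limma).

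Smad6, the inhibitory SMAD that acts mainly on the BMP branch, did not pass in any comparison of the main fit. With the title number as a block in the model, Smad6 passed in C4BPD vs DMSO and in C4BP vs C4BPD. It read 256, 239.6, 237, 229 and 241 in C4BPD wells, against 244, 207, 221, 213 and 207 in DMSO wells. These overlapped, with DMSO 1 above all C4BPD arrays but 1 (0.14, interval 0.04 to 0.24). Taken by title number, C4BPD was the higher in all 5 pairs, by 0.07 to 0.22 on the log2 scale. In C4BP and IAPP wells it stood at 219 ± 12.2 and 212 ± 8.04 (0.04, interval -0.06 to 0.15).

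Atoh8, a basic helix-loop-helix transcription factor known as a BMP target in other cells, read 327, 321, 329, 283 and 332 in C4BPD wells, against 279.6, 236, 266, 242 and 234 in DMSO wells. The groups did not overlap, although C4BPD 4 at 283 came close to DMSO 1 at 279.6 (0.34 on the log2 scale, interval 0.18 to 0.51). With IAPP it read 306, 377, 325, 336 and 324 in C4BP wells, against 276, 304, 237, 274 and 219.9 in IAPP wells (0.35, interval 0.19 to 0.52). Here C4BP 1 at 306 lay just above IAPP 2 at 304. The call in C4BP vs IAPP remained in 6 of 20 fits that each left out 1 array, those without C4BPD 1 or 4, C4BP 1, IAPP 2 or DMSO 1 or 5, and adjusted p reached 0.134 in the others (limma). The call in C4BPD vs DMSO was lost without C4BPD 2, 3 or 5 or without DMSO 2, 4 or 5 (up to 0.0798). For Bmp3 in C4BP vs IAPP it was lost without C4BP 2, 3, 4 or 5 or without IAPP 1, 2 or 3 (up to 0.0878).

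Counted together, 6 of the 10 genes were past the threshold in C4BPD vs DMSO, 5 higher and 1 lower, beside a background of 1.93% of all genes (1.17% higher, 0.765% lower). The same 6 genes, with the same directions, were past it in C4BP vs IAPP, beside 0.606% of all genes (0.374% higher, 0.231% lower). These 2 comparisons share no array. Nothing is read from either count, because the genes were chosen with both known. In C4BP vs DMSO, which shares arrays with both, 5 were higher and 0 lower, beside 5.96% of all genes (2.72% higher, 3.23% lower). IAPP vs DMSO had 1 of 10 past the threshold (Bmp3, higher), beside 3.38% (1.41% higher, 1.97% lower). C4BP vs C4BPD had 4 of 10 (Bmp3 higher, with Smad7, Smad9 and Bambi lower), beside 2.37% (0.754% higher, 1.62% lower). Ranges that did not overlap were counted as well. In C4BPD vs DMSO these were 5 members higher and 1 lower, beside 3.82% of all genes (1.99% higher, 1.83% lower), and in C4BP vs IAPP 5 higher and 1 lower, beside 2.38% (1.48% higher, 0.903% lower). In C4BP vs DMSO they were 5 higher and 0 lower, beside 6.13% (2.85% higher, 3.28% lower). In IAPP vs DMSO it was 1 higher and 0 lower, beside 4.83% (2.14% higher, 2.69% lower), and in C4BP vs C4BPD 1 higher and 2 lower, beside 3.73% (1.36% higher, 2.37% lower). In C4BP vs IAPP only 3 members (Smad9, Bambi and Acvr1c) passed without C4BP 2, 3 or 4 or without IAPP 3.

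**Figure D2:**
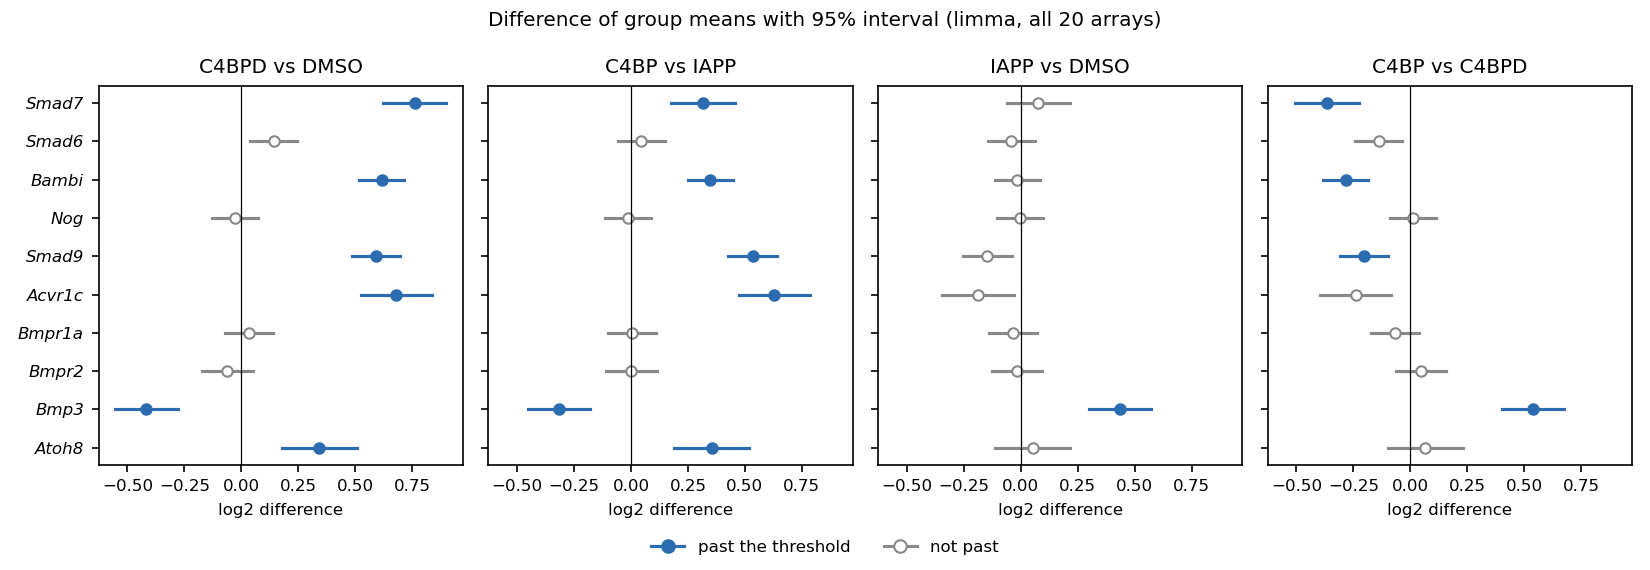
Log2 difference of group means (horizontal axis) with its 95% interval for each of the 10 genes in 4 comparisons, from a limma fit to all 20 arrays; blue points are past an adjusted p under 0.05 over all genes. Smad7, Bambi, Smad9, Acvr1c and Atoh8 lie to the right in C4BPD vs DMSO and in C4BP vs IAPP, and Bmp3 lies to the left in both and to the right in IAPP vs DMSO and C4BP vs C4BPD.

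Whether C4BP made the same difference with IAPP as without it was asked by an interaction term, the difference C4BP vs C4BPD less the difference IAPP vs DMSO. For Smad7 the difference with IAPP was smaller than that without it by 0.44 on the log2 scale (value -0.44, interval -0.64 to -0.25; limma, adjusted p = 0.154), and for Bambi it was smaller by 0.27 (value -0.27, interval -0.41 to -0.13; adjusted p = 0.435). Neither passed over all genes. For Smad9, Acvr1c and Atoh8 the values were -0.06 (-0.21 to 0.09), -0.05 (-0.27 to 0.17) and 0.01 (-0.22 to 0.24), and for Bmp3 0.10 (-0.09 to 0.30). With limma 0 of 10 genes passed, beside 0.0495% of all genes, and 2 of 10 had an unadjusted p under 0.05, as had 688 of all 18166. Among the alternatives Smad7 passed with array weights. In the plot of the 2 comparisons against each other, Smad7 and Bambi accordingly lie below the diagonal, and Acvr1c, Smad9 and Atoh8 lie near it.

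**Figure D3:**
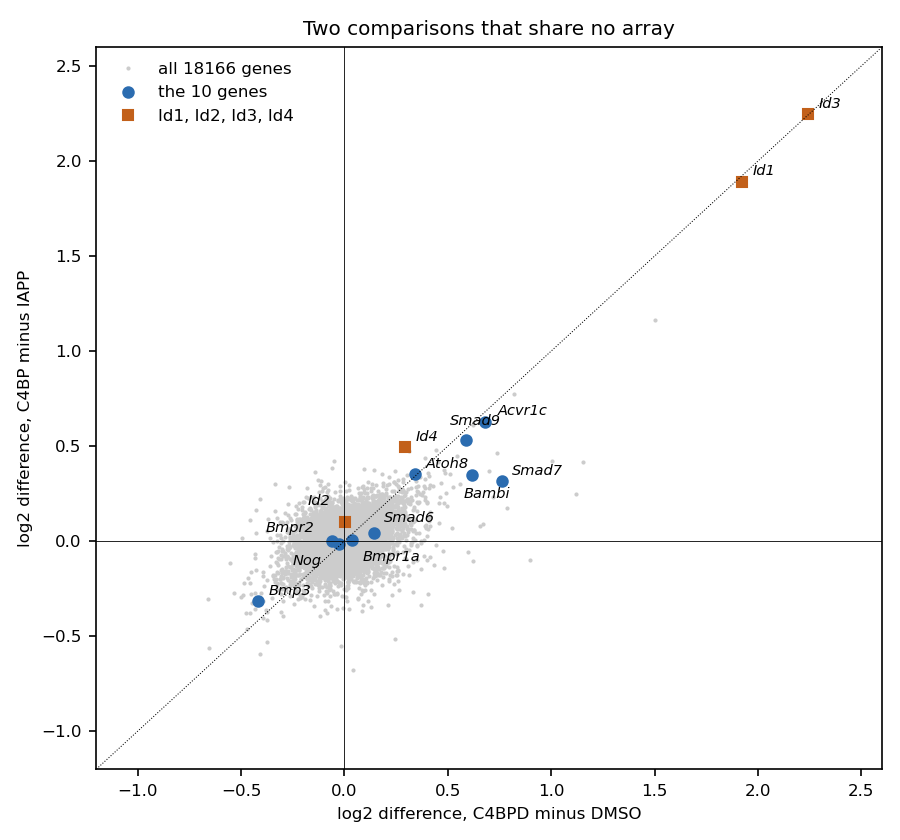
Log2 difference of C4BPD minus DMSO (horizontal) against C4BP minus IAPP (vertical) for all 18166 genes in grey, the 10 genes in blue and the 4 Id genes in orange; the dotted line marks equal differences. Smad7 lies at 0.76 and 0.32, Bambi at 0.62 and 0.35, and Acvr1c at 0.68 and 0.63.

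The genes differed in how much of their spread followed the groups. The 4 groups took 94.7% of the sum of squares of log2 intensity for Smad9, 94.5% for Bambi, 91.1% for Bmp3, 90.6% for Acvr1c and 90.4% for Smad7, then 69.1% for Atoh8 and 51.3% for Smad6, against a median of 18.0% over all genes. Bmpr1a (14.3%), Bmpr2 (8.7%) and Nog (2.8%) were under that median. Because the members were chosen with these groups known, a share above the median is a description and supports nothing about the set. The title number took 32.6% for Smad6, beside a median of 28.3%. The array numbered 1 stood apart within groups for several members. It was the highest of its group in 4 of 4 groups for Bmp3 and Bmpr1a and in 3 of 4 for Smad6 and Smad9, and the lowest in 4 of 4 for Acvr1c and 3 of 4 for Bambi. Without the arrays numbered 1 the same members were past the threshold in C4BPD vs DMSO, and Atoh8 no longer passed in C4BP vs IAPP. Without the arrays numbered 2, 3, 4 or 5, 3 members (Smad9, Bambi and Acvr1c) passed in C4BP vs IAPP, and Atoh8 no longer passed in C4BPD vs DMSO.

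**Figure D4:**
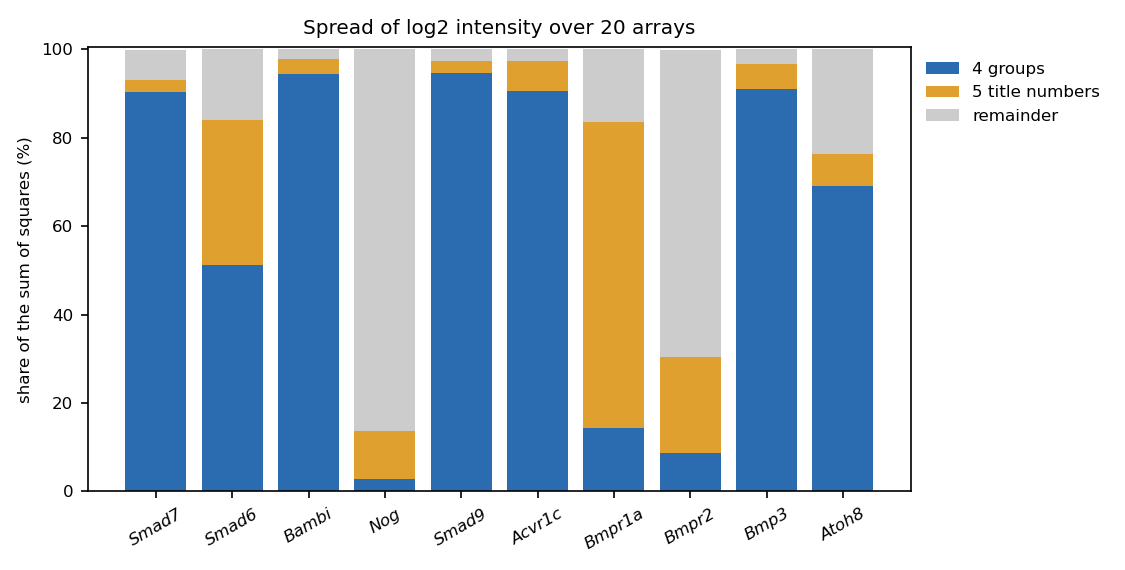
Share of the sum of squares of log2 intensity over 20 arrays (vertical axis, percent) that lay between the 4 groups, between the 5 title numbers and in the remainder, for each gene. The groups take over 90% for Smad7, Bambi, Smad9, Acvr1c and Bmp3, and the title number takes 69.3% for Bmpr1a.

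As a description of which members moved alike from array to array, deviations from the group means were correlated over the 20 arrays. Bambi and Acvr1c had the closest pairing (r = 0.83), and both ran against Smad6 (r = -0.48 and -0.62) and Bmp3 (r = -0.47 and -0.62) within groups, and most against Bmpr1a (r = -0.58 and -0.68), whose spread followed the title number. Smad7 went with Smad9 (r = 0.52), but hardly with Bambi (0.14) or Acvr1c (0.00). These arrays share title numbers, and the r values carry no test. Over all 20 arrays, group differences included, the genes most like each member by Pearson's r were few among the members themselves. For Bambi these were Phlda1 (0.971), Acvr1c (0.962) and Prph (0.95), for Acvr1c Bambi (0.962), Stard5 (0.952) and Id3 (0.949), and for Smad7 Bambi (0.928), Smad9 (0.912) and Phlda1 (0.911). Smad9 was most like Barhl1 (0.959), Efnb2 (0.958) and Slc43a2 (0.946), Bmp3 like Tmem184b (0.917), Chrnb2 (0.91) and Kcnk3 (0.886), and Atoh8 like Ifitm10 (0.837), Lcp2 (0.814) and Gas2l3 (0.809). For Smad6 they were Scn3b (0.923), Rfx5 (0.899) and Entpd3 (0.884), and for Bmpr1a Taldo1 (0.887), Racgap1 (0.885) and Xiap (0.866). Bmpr2 and Nog had no gene above 0.742 and 0.657. A high r over all arrays did not always hold within groups. On deviations from the group means r was 0.156 for Smad7 with Phlda1, 0.257 for Smad9 with Barhl1 and 0.243 for Bmp3 with Tmem184b. For Smad9 with Slc43a2 it was 0.802, for Smad6 with Scn3b 0.895 and for Bmpr1a with Taldo1 0.872.

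The rest of the pathway was read from 8 lists of other family genes, of which 94 of 103 genes were measured. These lists too were chosen with earlier results of these data known, so their counts are a description. In C4BPD vs DMSO 3 of the 94 were higher and 0 lower, beside 1.17% and 0.765% of all genes (median -0.034, against -0.009 for all genes). In C4BP vs IAPP 3 were higher and 0 lower, beside 0.374% and 0.231% (median 0.004, against 0.001). None of the 12 BMP ligands, 18 other ligands, 12 receptors and co-receptors, 5 signal-transducing SMADs or 11 intracellular regulators passed in either of these comparisons by limma, and 1 receptor had an unadjusted p under 0.05 in C4BPD vs DMSO and 1 of the other ligands in C4BP vs IAPP. The genes that did pass were mostly ID genes, inhibitors of helix-loop-helix factors and classical BMP targets. Id1 rose in C4BPD wells to 2525 ± 148, against 666 ± 53.4 in DMSO wells. With IAPP, Id1 rose in C4BP wells to 2252 ± 79.6, against 608 ± 42.2 in IAPP wells. Id3 stood at 4.74-fold in both comparisons. Id4 was higher in C4BP vs IAPP (0.49 on the log2 scale, limma, adjusted p = 0.00277). It did not pass in C4BPD vs DMSO or in C4BP vs DMSO, where its ranges overlapped. Its mean was 1921 ± 149 in C4BP, 2088 ± 160 in C4BPD, 1364 ± 107 in IAPP and 1707 ± 201 in DMSO wells. Of the 13 BMP targets the other members did not pass, among them Id2 at 138 ± 4.17 in C4BPD and 137 ± 2.34 in DMSO wells, and 0 of 7 targets of TGF-beta and activin passed in either comparison, with 2 and 0 at an unadjusted p under 0.05. Of all 18166 genes, 2208 were under that unadjusted p in C4BPD vs DMSO and 1440 in C4BP vs IAPP.

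Crim1, a membrane protein that binds BMPs, rose in C4BPD wells (331 ± 17.6, against 289 ± 10.4 in DMSO wells; limma, adjusted p = 0.0487). It was higher in IAPP wells as well (332 ± 16.8, limma, adjusted p = 0.0331). In C4BP wells it was higher too (338 ± 23.5, limma, adjusted p = 0.00831), so that DMSO wells were the low group. Its call in C4BPD vs DMSO lay near the threshold. List genes past it there numbered 2 rather than 3 with the compared groups alone, quantile normalization or all probe sets. The same held without C4BPD 3, 4 or 5 or without C4BP 2, 3 or 4. It held too without IAPP 1, 3, 4 or 5 or without DMSO 3, 4 or 5, and without all arrays numbered 2, 3, 4 or 5. Gdf15, a stress-induced member of the family, rose in IAPP wells to 1149 ± 124, against 806 ± 73.3 in DMSO wells (adjusted p = 0.0021), and in C4BP wells to 1200 ± 171, against 884 ± 52.7 in C4BPD wells (adjusted p = 0.0103). In IAPP vs DMSO 3 of the 94 genes were higher and 2 lower. Besides Gdf15 and Crim1, the SMAD co-repressor Tgif1 rose by 0.23 on the log2 scale (adjusted p = 0.0102), while Tob1, which can damp BMP signalling, fell by 0.18 (adjusted p = 0.036) and Id4 fell by 0.32 (adjusted p = 0.0234). In C4BP vs DMSO 4 were higher and 3 lower. The lower ones were Smad5 (fell by 0.16, adjusted p = 0.0176), Smad2 (fell by 0.11, adjusted p = 0.0474) and Tob1 (fell by 0.18, adjusted p = 0.0242). Counted over the lists, 5 of 94 genes in IAPP vs DMSO and 7 of 94 in C4BP vs DMSO stand beside 3.38% and 5.96% of all genes, which is near the background. No lower list gene passed in C4BP vs DMSO with each array centred on its median, and none in either comparison when the compared groups were fitted alone.

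**Figure D5:**
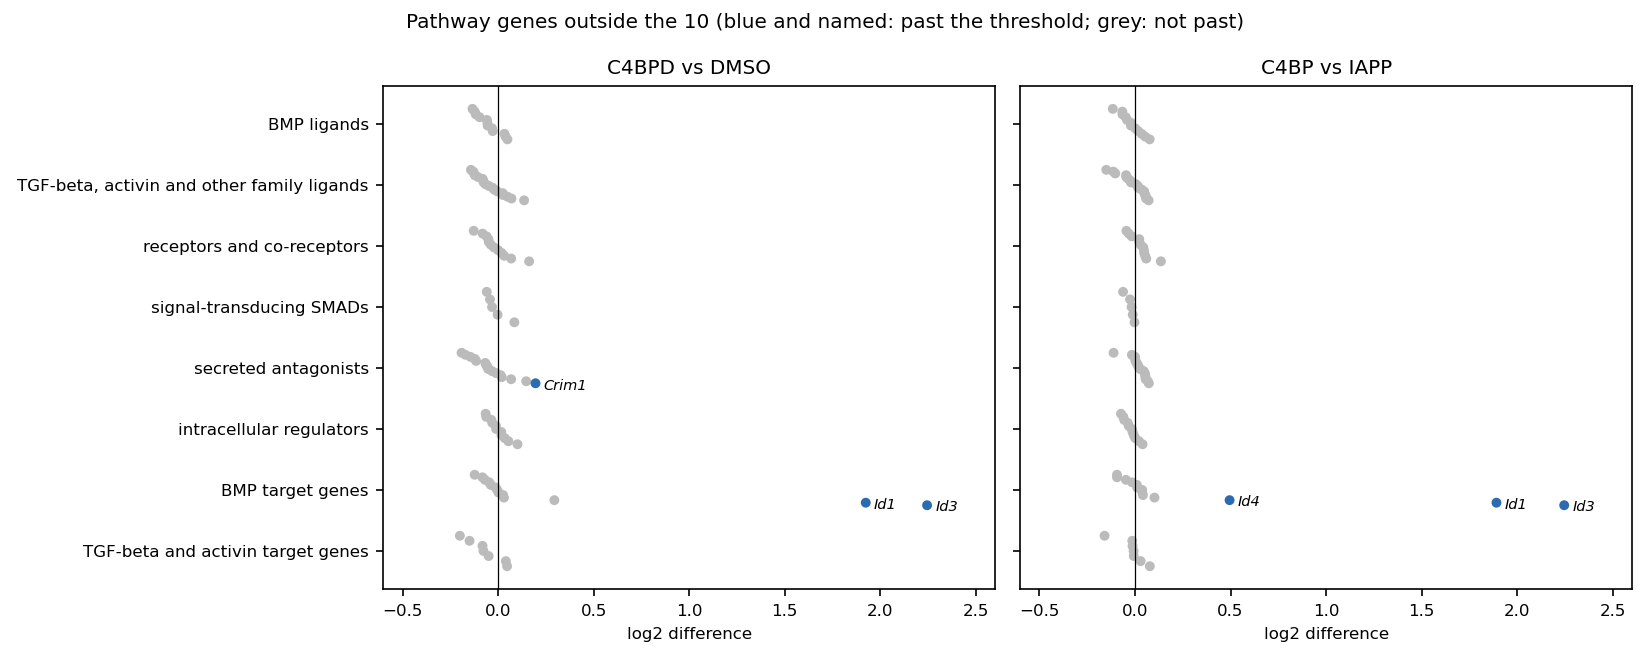
Log2 difference (horizontal axis) of each of 94 measured pathway genes outside the 10, by list, in C4BPD vs DMSO and in C4BP vs IAPP; blue named points are past an adjusted p under 0.05 over all genes and grey points are not. Id1 and Id3 stand far to the right in both, Id4 passes in C4BP vs IAPP and Crim1 in C4BPD vs DMSO, and ligands, receptors and SMADs stay near 0.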

How the data were processed

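The values are intensities that the authors deposited, one linear value per probe set. Per the submitters' processing notes they come from Affymetrix Expression Console. Which version, summary algorithm or annotation was used is not given in the sources used here. Of 36685 probe sets, 190 controls were left out. Probe sets with exactly 1 symbol in the GEO platform annotation (18511) were kept, the brightest for each of 291 genes with more than 1, giving 18166 genes. Intensities went to the log2 scale as deposited, and dim genes were kept.

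All 20 arrays entered 1 limma model (limma 3.58.1, 4 group means) in R 4.3.3 (16 residual degrees of freedom, two-sided, Benjamini-Hochberg over all genes, threshold 0.05), and was tested on simulated data. Intervals are 95% and unadjusted. Folds are ratios of geometric means. Members and lists were chosen with earlier results of these data known. All members are named, with list genes past the threshold and the 3 genes most like each member. The plan held comparisons of second probe sets and of proteins, which are not used here because each member has 1 probe set and no protein table was at hand. In none of the comparisons did all 5 same-numbered pairs of arrays correlate over 0.1 in their deviations from the group means. By that rule the title number is no block in the model. The median r of such pairs was still positive in every comparison, from 0.095 in IAPP vs DMSO to 0.318 in C4BP vs IAPP. A pairing of the arrays was thus not excluded, and a fit with the block is among the alternatives. The alternatives were other scalings, weights, filters, groupings and fits without single arrays. The number of arrays limits the precision. Figures used Python 3.11.15 and matplotlib 3.10.9. Promoter sequences are from RefSeq (GRCr8), and Smad6 has none here.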

Additional observations from a re-analysis of the deposited data

Results flagged for a closer look

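In 4 of 80 groups of 5 arrays (20 genes, the 10 members among them), 1 array lay far from the other 4, where chance gives about 1 group in 20. For Smad7 it was IAPP 1, the highest at 114.7, with the others between 100.8 and 104.7. For Atoh8 it was C4BPD 4, the lowest at 283.1, with the others between 321.4 and 332.2. For Id4 it was C4BP 1, the lowest at 1665.2 (the others 1940.6 to 2050.9), and for Smad5 C4BP 4, the lowest at 2693.1 (the others 2994.3 to 3104.2).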

How the results depend on the processing

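With groups from the treatment field, 0 members, 0 list genes and 0 genes passed in every comparison. Members past the threshold by title then changed sign: Smad7 (-0.11 in C4BPD vs DMSO, -0.27 in C4BP vs IAPP, -0.17 in C4BP vs DMSO), Smad9 (-0.20, -0.20, -0.23), Bambi (-0.13, -0.17, -0.21), Acvr1c (-0.21, -0.24, -0.33) and Atoh8 (-0.23, -0.17, -0.26), each in that order, and Bmp3 (0.053 in C4BPD vs DMSO, 0.078 in C4BP vs IAPP). The cause was not tested. Among the fits by title, Smad9, Bambi and Acvr1c held their calls in C4BPD vs DMSO, C4BP vs IAPP and C4BP vs DMSO under all of them. The replicate block used the title number, although same-numbered arrays did not all correlate over 0.1. With it 797 genes passed in C4BPD vs DMSO, 352 in C4BP vs IAPP, 1884 in C4BP vs DMSO and 1133 in IAPP vs DMSO. In C4BP vs C4BPD 958 passed, and 18 in the interaction. List genes numbered 13, 9 and 5 in C4BP vs DMSO, IAPP vs DMSO and C4BP vs C4BPD. The block added Smad9 and Acvr1c in IAPP vs DMSO (3 members), Smad6 in C4BPD vs DMSO, and Smad6 and Acvr1c in C4BP vs C4BPD. Fitting the compared groups alone gave 208, 33, 663 and 223 genes in C4BPD vs DMSO, C4BP vs IAPP, C4BP vs DMSO and C4BP vs C4BPD, with 4 list genes in C4BP vs DMSO and 3 in IAPP vs DMSO, and ended the calls of Atoh8 in C4BP vs IAPP and Smad9 in C4BP vs C4BPD. Array weights gave 644 genes in C4BPD vs DMSO, 2 list genes in C4BP vs C4BPD and 1 member in the interaction (Smad7), and added Acvr1c in C4BP vs C4BPD. Centring each array on its median gave 221 genes in C4BPD vs DMSO, 70 in C4BP vs IAPP, and 3 list genes each in C4BP vs DMSO and IAPP vs DMSO, and ended the calls of Bmp3 in C4BP vs IAPP and Smad9 in C4BP vs C4BPD. Quantile normalization ended those of Atoh8 in C4BPD vs DMSO and C4BP vs IAPP and of Smad9 in C4BP vs C4BPD. Testing all probe sets gave 226 and 70 features in those first comparisons, 3 members in C4BP vs IAPP, 2 list genes in IAPP vs DMSO and 0 in the interaction, and ended the calls of Atoh8 in C4BPD vs DMSO, of Smad7, Bmp3 and Atoh8 in C4BP vs IAPP and of Smad9 in C4BP vs C4BPD. Leaving out dim genes gave 201 genes in C4BP vs IAPP and 2 list genes in C4BP vs C4BPD. It also took Smad7 and Bmpr2 out of the test. Members past the threshold then numbered 5 in C4BPD vs DMSO, 5 in C4BP vs IAPP and 4 in C4BP vs DMSO. Without single arrays, or all arrays of 1 title number (chosen after seeing the data), genes past the threshold ranged from 151 to 386 in C4BPD vs DMSO, 18 to 135 in C4BP vs IAPP, 615 to 1188 in C4BP vs DMSO, 235 to 686 in IAPP vs DMSO, 200 to 522 in C4BP vs C4BPD and 0 to 10 in the interaction. Members ranged from 5 to 6, 3 to 6, 5 to 5, 1 to 1 and 2 to 4 in the first 5, and list genes from 2 to 4, 2 to 3, 4 to 8, 1 to 5 and 0 to 2.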
